A study of Mus musculus with 14 samples.

Results

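The genes described here mark T cells and cytotoxic lymphocytes, and they were followed in bulk RNA-Seq of the mouse esophagus. The list of 10 genes was Cd3d, Cd3e, Cd3g, Cd4, Cd8a, Trdc, Trac, Ptprc, Gzmb and Nkg7, each taken as the row of that symbol among the 55291 gene symbols of the count tables, and all 10 were found. The 14 samples came from 9 wild-type C57BL/6 mice with no further allele or treatment. Peeled epithelium was sequenced from 5 aged mice (18 months or more; O1, O2, O3, OF5 and OM8) and 4 young mice (4 months or less; Y1, Y3, YF5 and YM4). Stroma, the tissue separated from the peeled epithelium, was sequenced from O1, O2 and O3 and from Y1 and Y3, so 5 mice gave both layers and 4 gave epithelium alone. Each library came from a single mouse and was not pooled.

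T cells recognise antigen through a receptor made of variable chains, whose constant parts are encoded by Trac for the alpha chain and Trdc for the delta chain, joined to the signalling chains of the CD3 complex. The co-receptors CD4 and CD8 separate helper from cytotoxic alpha-beta T cells, whereas gamma-delta T cells, which carry the delta chain, are common in barrier tissues such as skin and gut. Cytotoxic cells, including natural killer cells, kill with granule contents such as granzyme B, and Ptprc encodes CD45, a phosphatase on the surface of white blood cells.

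Cd3g and Cd3d lie head to head on chromosome 9, with starts 1355 bases apart on opposite strands in GENCODE M21, and Cd3e starts 27841 bases from Cd3d. The start regions of Cd3g and Cd3d are shown because both genes are read away from the same short interval. Each window holds 250 bases before and 50 after the start, from RefSeq on GRCm38.p6, and 7 of the 10 genes had such a window. Capitals mark matches, on either strand, to the E-box CAGCTG, to the RUNX motif TGTGGT or to the ETS motif GGAAGT.
Cd3g, chr9:44980382-44980681, minus strand: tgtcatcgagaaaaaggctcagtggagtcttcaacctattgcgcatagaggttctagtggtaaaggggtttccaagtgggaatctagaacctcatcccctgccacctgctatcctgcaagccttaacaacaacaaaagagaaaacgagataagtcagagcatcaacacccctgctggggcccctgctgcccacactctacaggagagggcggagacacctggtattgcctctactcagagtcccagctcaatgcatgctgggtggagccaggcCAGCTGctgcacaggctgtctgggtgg
Cd3d, chr9:44981536-44981835, plus strand: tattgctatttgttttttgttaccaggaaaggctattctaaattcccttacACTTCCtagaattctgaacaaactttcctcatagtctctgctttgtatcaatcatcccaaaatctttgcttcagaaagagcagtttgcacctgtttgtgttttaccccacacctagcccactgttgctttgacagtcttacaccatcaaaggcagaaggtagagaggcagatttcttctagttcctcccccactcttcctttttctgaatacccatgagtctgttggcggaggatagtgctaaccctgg
The Cd3g window held 1 E-box and the Cd3d window 1 ETS motif, and neither held the RUNX motif. Among 32851 start windows of that length, 16.3% held the E-box, 16.8% the RUNX motif and 23.8% the ETS motif, so such matches were common.

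Library depth limited what could be seen of these genes. Total counts per library ran from 8217516 to 21867101, but the 4 epithelial libraries of mice without stroma held only 1041386 to 1432509 counts in protein-coding genes, against 7959322 to 11051060 in the other epithelial libraries and 6619770 to 8059722 in stroma. On the scale of CPM, counts per 1000000 counts of the TMM-adjusted library size, a floor of 3 counts corresponded to 0.0872 to 1.25 CPM. The layers matched their labels: all 5 keratinocyte markers were higher in epithelium and all 12 skeletal muscle markers were higher in stroma.

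Ptprc and Trdc were both lower in peeled epithelium than in stroma. Ptprc was read in every library. In epithelium it ran from 1.52 CPM through a median of 2.50 to 7.58 CPM over 9 libraries. In stroma it was at 4.49 CPM in O1, 8.67 in O2, 32.5 in O3, 8.15 in Y1 and 12.4 in Y3. The layers overlapped, because the epithelium of OF5 and OM8 lay above the stroma of O1, but stroma was the higher layer in 5 of 5 mice with both. The means were 3.49 ± 2.33 CPM (SD, n = 9) and 13.2 ± 11.1 CPM (SD, n = 5). The log2 fold change of epithelium over stroma was -2.02 (SE 0.44) with an adjusted p of 0.000724 in edgeR's quasi-likelihood test. It was -1.37 without the stroma of O3, and -1.12 with an adjusted p of 0.0281 when the stroma of Y3 was left out too.

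Trdc, the constant region of the T cell receptor delta chain, showed the wider difference. Its count in the 9 epithelial libraries was 0 in OF5, YF5 and YM4, 1 in O3, OM8, Y1 and Y3, 2 in O1 and 6 in O2. In stroma it was 29 in O1, 62 in O2, 219 in O3, 20 in Y1 and 34 in Y3. The layers did not overlap, with a highest epithelial level of 0.236 CPM, which was 1 count in OM8, and a lowest stromal level of 1.03 CPM. The log2 fold change was -5.26 (SE 0.69) with an adjusted p of 1.67e-06 by edgeR, and -4.39 without the stroma of O3. Trdc passed the filter on low counts only through its stromal libraries. In bulk samples, fewer cells of a type and less RNA per cell cannot be told apart.

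These 2 genes were the only members to pass the filter, and both were called lower in epithelium, where 30.1% of the 16791 genes tested were called lower. Genes called lower whose layers did not overlap, as for Trdc, made up 16.9% of those tested. With mouse as a block over the 5 mice with both layers, both calls remained, at log2 fold changes of -2.16 (adjusted p = 0.00383) for Ptprc and -5.05 (adjusted p = 0.000479) for Trdc. Trdc shares 303 of its 3865 exon bases with the antisense genes Gm43434 and Trdv5, and whether strand was used in counting is not given in the sources used here. Gm43434 held 57 counts in the stroma of O1 and at most 2 in any other library.

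**Figure D1:**
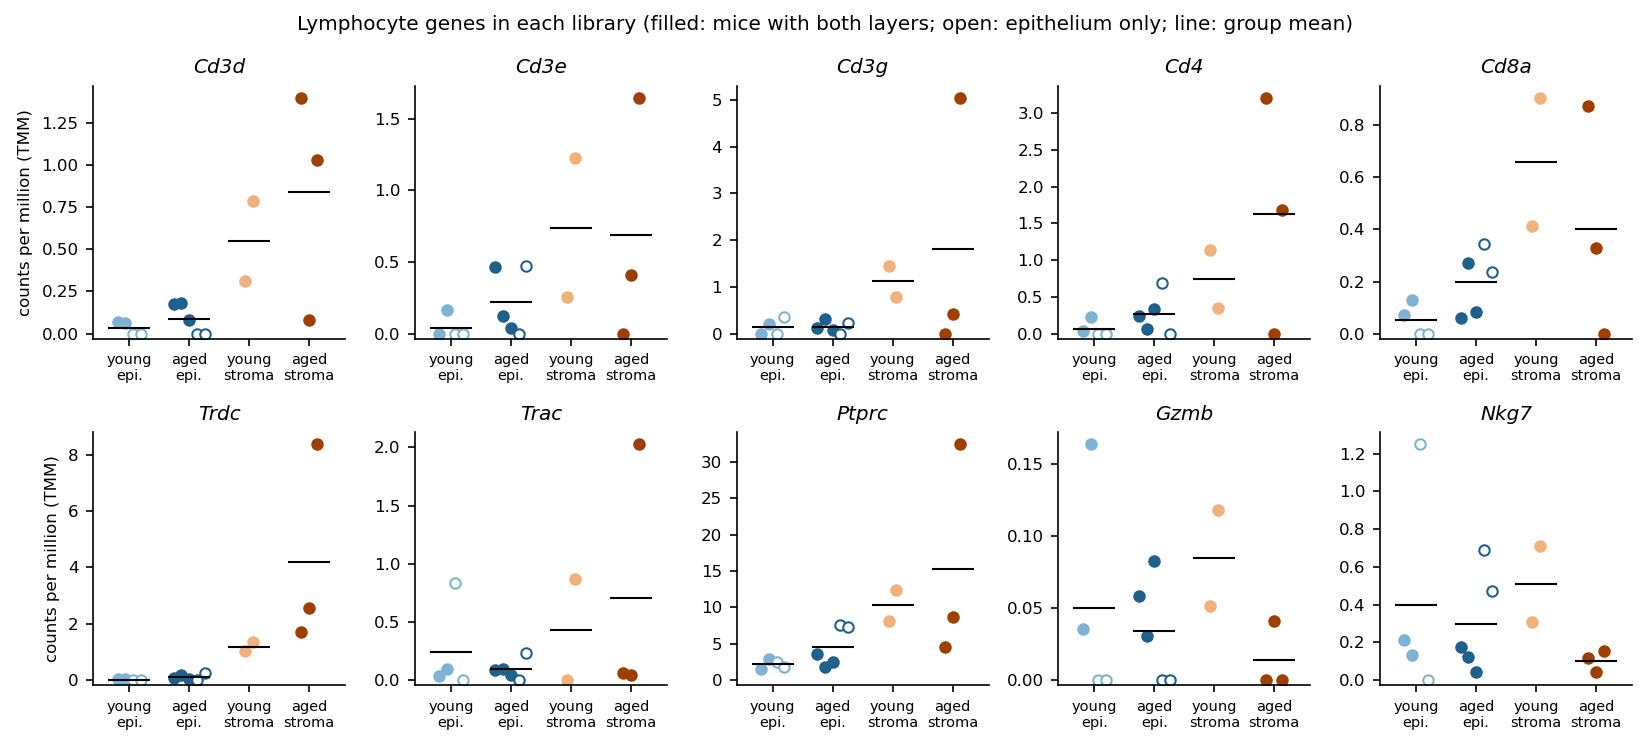
Level of each of the 10 genes in CPM, a panel per gene with its own vertical axis from 0, in young and aged epithelium and stroma. Points are libraries (open: the 4 mice with epithelium only) and lines are group means. Trdc separates the layers, whereas O3 is the highest stromal library for Ptprc, Trdc, Trac, Cd3e and Cd3g.

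The CD3 chains, which carry the receptor signal into the cell, were read at low counts in both layers and were tested only in a fit without the filter. Cd3d had 24, 2, 27, 6 and 20 counts in the stroma of O1, O2, O3, Y1 and Y3. Cd3e had 0, 10, 43, 5 and 31 in the same order, and Cd3g had 0, 10, 132, 28 and 20. The stroma of O3 was highest for all 3 chains in counts, and the chains did not keep one proportion, since the stroma of O1 had Cd3d without Cd3e or Cd3g. In epithelium, Cd3d ran from 0 to 6 counts with a median of 2, Cd3e from 0 to 16 with a median of 1, and Cd3g from 0 to 10 with a median of 1. For each chain the layers overlapped, and stroma had the higher CPM in 4 of 5 mice.

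Without the filter, 49574 genes were tested and 17.0% were called lower in epithelium, and 5 of the 10 members were among them: Ptprc, Trdc, Cd3g, Cd3d and Cd4. Cd3g had a log2 fold change of -3.24 (SE 0.88, adjusted p = 0.00161 by edgeR) and Cd3d one of -2.75 (SE 1.08, adjusted p = 0.0405). Cd3e, at -2.0 (SE 1.03, adjusted p = 0.133), was not called. Neither Cd3d nor Cd3g kept its call when the stroma of O3 was left out, where Cd3d stood at -2.43 (adjusted p = 0.0565) and Cd3g at -1.82 (adjusted p = 0.151). With mouse as a block they stood at -1.95 (adjusted p = 0.534) and -2.06 (adjusted p = 0.372), again without a call. Over 15 alternatives to the fit without the filter, Cd3d was called in 2 and Cd3g in 11.

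The co-receptors were uneven among stromal libraries. Cd4, the co-receptor of helper T cells, had 55, 0, 44, 22 and 9 counts in the stroma of O1, O2, O3, Y1 and Y3, and 0 to 8 counts with a median of 2 in epithelium. Cd8a, a chain of the co-receptor of cytotoxic T cells, had 15, 8, 0, 8 and 23 counts in the same stromal libraries, and 0 to 9 with a median of 2 in epithelium. Cd4 was absent from the counts of O2 and Cd8a from those of O3, so for each gene the layers overlapped. Without the filter, Cd4 was called at a log2 fold change of -2.64 (SE 0.91, adjusted p = 0.0175 by edgeR), and with mouse as a block it was not (-1.79, adjusted p = 0.499). It was not called without mouse O1 (adjusted p = 0.136) or without mouse Y1 (0.0616). Cd8a, at -1.65 (SE 1.13, adjusted p = 0.269), was not called.

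Trac, the constant region of the alpha chain, was carried by the stroma of O3 and Y3. It had 53 counts in O3 and 22 in Y3, 1 in O1 and O2 and 0 in Y1, and 0 to 3 counts in every epithelial library. Stroma was higher in only 2 of 5 mice, and the log2 fold change without the filter was -2.16 (SE 1.13, adjusted p = 0.141 by edgeR). It was 1.93 (adjusted p = 0.346) when the stroma of both O3 and Y3 was left out. That subset was added after the data were seen and leaves out the stromal libraries that held Trac, so its sign carries no further information. Trac and Trdc differed in how many stromal libraries held them, with at least 3 counts in 2 and in 5 of 5.

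The cytotoxic genes were near the floor in both layers. Gzmb, granzyme B, had 0, 1, 0, 1 and 3 counts in the stroma of O1, O2, O3, Y1 and Y3 and 0 to 5 in epithelium, 11 counts over 9 epithelial libraries in all. Nkg7, a granule membrane protein of natural killer and cytotoxic T cells, had 2, 1, 4, 6 and 18 counts in stroma and 0 to 6 in epithelium. The log2 fold changes without the filter were 0.52 (SE 1.25, adjusted p = 0.783) for Gzmb and 0.39 (SE 1.19, adjusted p = 0.833) for Nkg7 by edgeR. A difference of these genes between the layers was not detectable at this depth. The highest Nkg7 level, 1.25 CPM in the epithelium of YF5, was 3 counts.

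**Figure D2:**
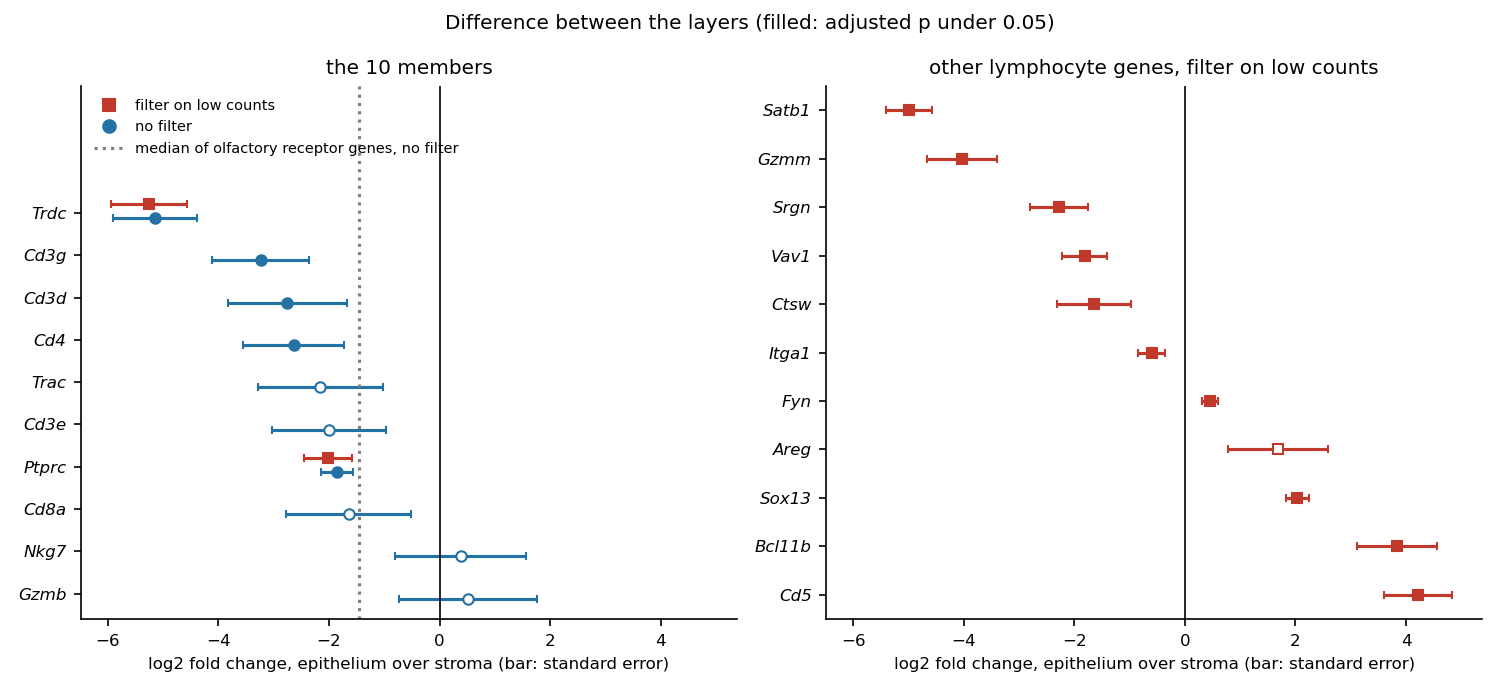
Log2 fold change of epithelium over stroma with its standard error, for the 10 members (left; squares with the filter on low counts, circles without) and 11 other lymphocyte genes (right; with the filter). Filled symbols have an adjusted p under 0.05, and the dotted line is the median of the olfactory receptor genes, -1.46.

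Counts at genes that these tissues are not known to use set a background for such low levels. The 1126 protein-coding olfactory receptor genes, chosen for this after the data were seen, held 0.00114 to 0.0287 CPM per kilobase of exon in epithelium and 0.0275 to 0.0845 in stroma. Their level was itself 6.05 times as high in stroma as in epithelium, by group means. Without the filter, 169 of 1110 tested olfactory receptor genes (15.2%) were called lower in epithelium, with a median log2 fold change of -1.46, against -0.56 over all genes tested. The unfiltered log2 fold changes of Cd3e, Cd8a and Trac lay within 1 SE of that median. The called members lay below it, with Ptprc at -1.85 (SE 0.29), Cd4 at -2.64 (SE 0.91) and Cd3d at -2.75 (SE 1.08). Cd3g stood at -3.24 (SE 0.88) and Trdc at -5.15 (SE 0.77). Their calls were made against 0, and a difference from the olfactory median was not tested.

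Per kilobase, Ptprc exceeded the olfactory level in all 9 epithelial libraries, by 5.53 to 168 times, and at most 1.6% of the olfactory receptor genes reached its level in any of them. In stroma it exceeded that level by 2.90 to 64.4 times, and 12.1% of the olfactory receptor genes reached its level in O1. Trdc exceeded it in 5 of 5 stromal libraries, by 4.12 to 78.7 times, and in 4 of 9 epithelial libraries. In the stroma of O1, 7.02% of the olfactory receptor genes reached the Trdc level, and in that of O3 none did. Gzmb exceeded the olfactory level in 1 of 5 stromal libraries, by 1.13 times, and in 5 of 9 epithelial libraries, with at most 5 counts. Nkg7 exceeded it in 5 of 5 stromal libraries and in 8 of 9 epithelial ones, where it had at most 6 counts. For both genes the epithelial libraries above the olfactory level were exactly those with any count of the gene. The comparison therefore cannot show that Gzmb or Nkg7 stood above background in epithelium.

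The order of the members, in mean CPM per kilobase, changed between the layers. In stroma it began with Trdc (0.776 ± 0.792, SD, n = 5), Ptprc (0.723 ± 0.607) and Trac (0.640 ± 0.938), and ended with Cd3e (0.173 ± 0.170), Cd8a (0.139 ± 0.106) and Gzmb (0.0294 ± 0.0338). The neighbours in this order differed by less than their SDs, except Cd8a and Gzmb. In the epithelial libraries of these mice Nkg7 (0.149 ± 0.0703, SD, n = 5) and Ptprc (0.134 ± 0.0452) led and Trdc was last (0.0181 ± 0.0164), within the SDs of Cd3e and Cd8a. Without the stroma of O3, the stromal order began with Ptprc (0.460 ± 0.176, SD, n = 4) and Trdc (0.428 ± 0.169), and Trac stood at 0.258 ± 0.447.

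**Figure D3:**
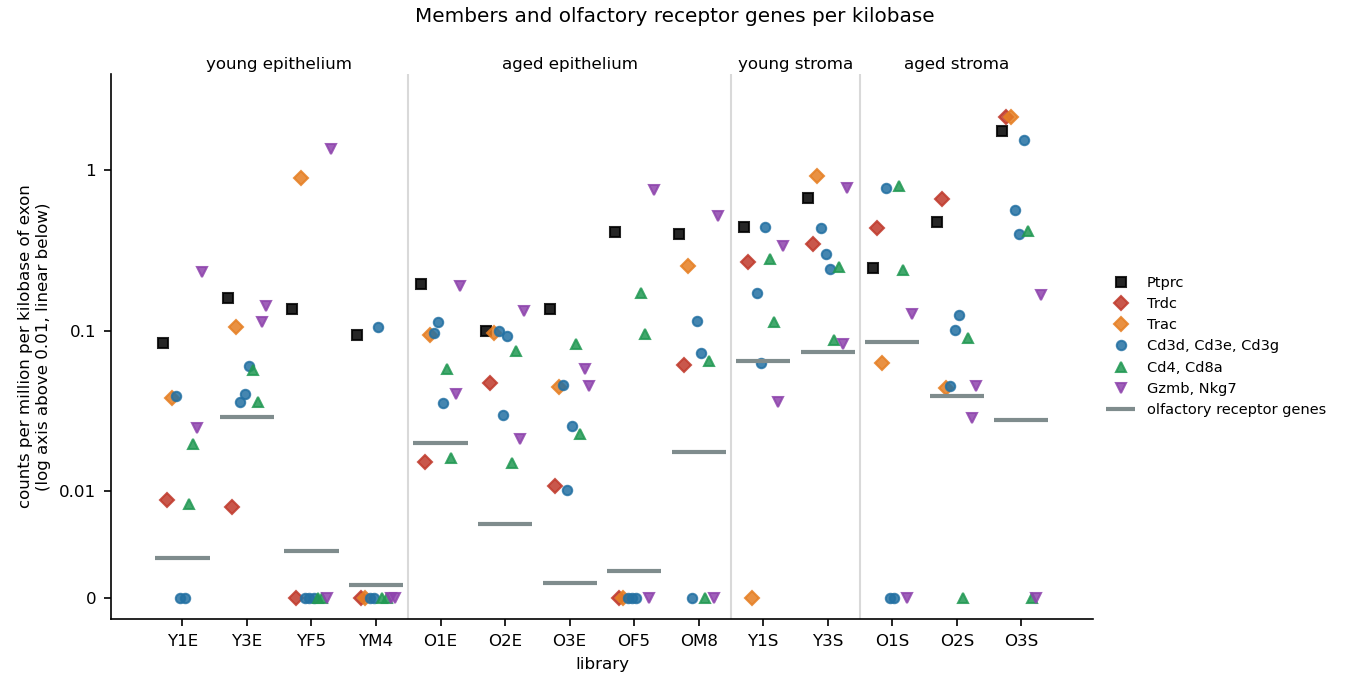
CPM per kilobase of exon for the 10 members (symbols) and the olfactory receptor genes together (grey bars) in each library, on a log axis above 0.01. Ptprc lies above the grey bar in all 14 libraries, Trdc in all 5 stromal ones, and every other member lies below it in some library.

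Other lymphocyte genes were taken from lists written with earlier results of these data known. None of the 8 other T cell receptor and CD3 chains present in the files passed the filter. Of 23 genes of proximal receptor signalling, 9 were tested, 7 were lower in epithelium and 2 higher, with a median log2 fold change of -2.39 against -0.05 over all genes. Of 15 T lineage factors and circulating T cell genes, 12 were tested, 7 were lower and 1 higher. Of 16 genes of tissue-resident and gamma-delta lymphocytes, 8 were tested, 2 were lower and 1 higher. Of 23 cytotoxic effectors and natural killer receptors, 4 were tested, and 3 were lower. Genes called higher in epithelium made up 26.1% of all tested, and genes called lower 30.1%.

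Several of the most abundant of these genes did not follow the CD3 chains. Cd5, a receptor that dampens T cell signalling, averaged 9.91 ± 3.54 CPM (SD, n = 9) in epithelium and 0.508 ± 0.539 CPM (SD, n = 5) in stroma, a log2 fold change of 4.22 (SE 0.62, adjusted p = 1.23e-05 by edgeR). It had 247 to 275 counts in the epithelial libraries of O1, O2, O3, Y1 and Y3, in which no CD3 chain exceeded 16 counts. Its exons share no bases with another gene of the annotation. Bcl11b, a transcription factor of T cell commitment that skin keratinocytes also express, was higher in epithelium at 3.83 (SE 0.72, adjusted p = 0.000394), Sox13, a factor of gamma-delta T cells, at 2.03 (SE 0.21, adjusted p = 5.52e-08) and Fyn, a kinase used in many cell types, at 0.45 (SE 0.15, adjusted p = 0.0121). Without the stroma of O3, which had 187 Bcl11b counts against 0 to 35 in the other stromal libraries, Bcl11b stood at 5.29. Fyn was not called without mouse Y1 (0.39, adjusted p = 0.0638), without mouse Y3 (0.40, adjusted p = 0.063) or when each library had to hold 10 counts of a gene (0.14, adjusted p = 0.358).

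Genes of these lists that were lower in epithelium included a nuclear factor, a signalling protein and granule genes. Satb1, a chromatin organiser, had a log2 fold change of -4.99 (SE 0.42, adjusted p = 1.01e-08 by edgeR). Gzmm, granzyme M, stood at -4.03 (SE 0.64, adjusted p = 2.00e-05), but with 0 to 8 counts in epithelium it had, like Trdc, passed the filter only through its stromal libraries. Srgn, the granule proteoglycan serglycin of many blood cells, stood at -2.27 (SE 0.53, adjusted p = 0.0011), and Vav1, a signalling protein of blood cells, at -1.81 (SE 0.41, adjusted p = 0.000793). Itga1, an integrin chain, at -0.60 (adjusted p = 0.0414), and Ctsw, a protease of cytotoxic cells, at -1.65 (adjusted p = 0.0434), lost their calls with mouse as a block, at -0.51 (adjusted p = 0.112) and -2.02 (adjusted p = 0.0779). Itga1 also lost its call when O1, O2, O3, OM8 or YF5 was left out, with -0.37 (adjusted p = 0.248) without O2, and Ctsw when O1, O2, O3, Y1, YF5 or YM4 was left out, with adjusted p up to 0.172. Areg, the growth factor amphiregulin, at 1.69 (SE 0.91, adjusted p = 0.12), was not called, but it was called without the stroma of O3 (3.63, adjusted p = 0.00188) and without the filter (1.84, adjusted p = 0.0406).

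The stroma of O1 was uneven among these genes, which were chosen after their values were seen. It had 170 counts of Gzmm, but 0 of Lck, Zap70, Cd247, Trbc1 and Trbc2. Of 95 lymphocyte genes it had 38 at 0 and 33 with at least 20 counts. The stroma of O2 had 27 at 0 and 34 with at least 20, and that of O3 had 26 and 49. Young stroma had fewer at 0, with 10 and 28 in Y1 and 2 and 43 in Y3. Olfactory receptor counts were also uneven in O1, with 281 genes having a count and 110 having at least 20. These were 329 and 50 in O2, 111 and 49 in O3, 702 and 26 in Y1, and 951 and 46 in Y3. All 3 aged stromal libraries thus had more of these genes at 0 than young stroma, so this was not particular to O1. The part of this unevenness in the values of single members was not tested.

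Markers of most other leukocytes were lower in epithelium, as Ptprc was, but the summed neutrophil markers were not. Over all genes tested, 30.1% were called lower in epithelium. The summed level of 10 B cell markers was 0.496 to 20.7 CPM in epithelium and 36.8 to 2203 CPM in stroma, the highest being O3, and all 8 tested were lower in epithelium. These 10 held only 4 to 143 counts in all per epithelial library. In the age comparison within epithelium only 2 passed the filter, so most passed it here through stroma, which favours calls of lower in epithelium. The sum of 10 macrophage markers was 41.3 to 107 CPM in epithelium and 147 to 324 CPM in stroma, and 9 of 10 tested were lower in epithelium. Of 10 Langerhans and dendritic cell markers 5 were tested and 4 were lower, of 8 mast cell markers 4 were tested and 2 were lower, and of 6 neutrophil markers 3 were tested, with 1 lower and 1 higher. The neutrophil sum was 4.48 to 10.4 CPM in epithelium and 0 to 9.60 CPM in stroma, and it was higher in epithelium in all 5 mice with both layers. The single neutrophil markers mostly went the other way, with a median log2 fold change of -2.15 over the 3 tested. Without the filter the median over all 6 was -2.31, with 2 called lower and 1 higher. The sum thus does not stand for its markers. All 5 red blood cell markers were lower in epithelium, with sums of 2.76 to 51.5 CPM against 188 to 431 CPM. The part of B cells, macrophages and blood in the Ptprc difference was not tested.

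**Figure D4:**
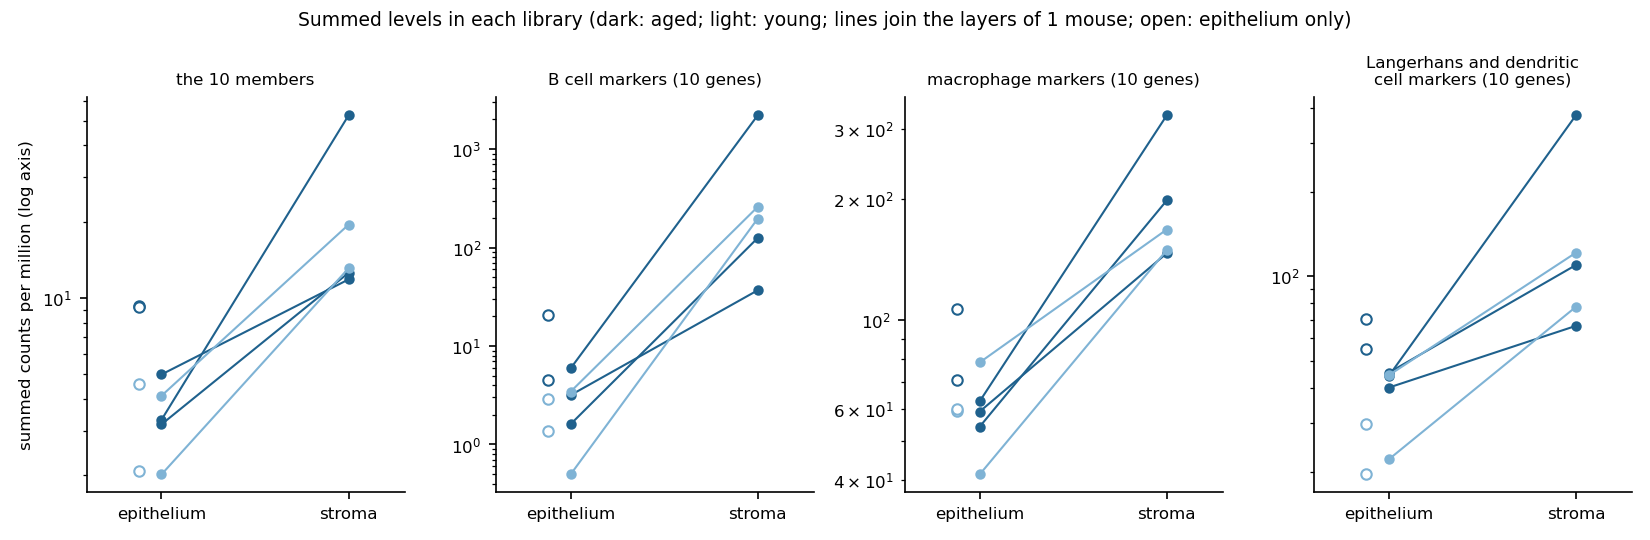
Summed CPM on log axes of the 10 members and of the markers of B cells, macrophages, and Langerhans and dendritic cells in each library. Lines join the layers of a mouse, dark for aged and light for young, open circles are the 4 mice with epithelium only, and every line rises towards stroma, with O3 the highest stromal point in each panel.

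Age left no called difference in the members. In epithelium 0.0126% of 15859 genes were called (2 genes), and Ptprc was the only member tested. Aged epithelium had 3.58, 1.82, 2.48, 7.58 and 7.31 CPM of Ptprc in O1, O2, O3, OF5 and OM8, and young epithelium had 1.52, 2.91, 2.50 and 1.73 CPM in Y1, Y3, YF5 and YM4. The ages overlapped, and the log2 fold change of aged over young, adjusted for whether the mouse also gave stroma, was 0.67 (SE 0.33, unadjusted p = 0.0588, adjusted p = 0.9996 by edgeR). It was 0.24 (SE 0.36) within the 5 mice with both layers and 1.84 (SE 0.57, adjusted p = 0.552) within the 4 mice with epithelium only, where the aged libraries held 22 and 31 counts and the young ones 6 and 5.

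In stroma 0% of 21323 genes were called by edgeR, with 776 at an unadjusted p under 0.05 and 2 called by DESeq2. Of the 10 members, 8 were tested and 0 had an unadjusted p under 0.05, while Gzmb and Nkg7 did not pass the filter. Trdc was at 1.69, 2.55 and 8.38 CPM in aged O1, O2 and O3 and at 1.03 and 1.34 CPM in young Y1 and Y3. All 3 aged values lay above both young ones, but how many of all genes separate the ages in this way was not counted. With so few libraries, such an order is no evidence of an age difference. The log2 fold change was 1.82 (SE 0.93, unadjusted p = 0.08, adjusted p = 0.99996 by edgeR). Without O3 it was 0.80 (SE 0.89). Ptprc had a log2 fold change of 0.57 (SE 0.71), which was -0.67 without O3, and the other 6 members ran from -0.74 to 1.11 with SEs of 1.78 to 2.44.

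Whether an age difference differed between the layers was tested in the 10 libraries of the 5 mice with both. This fit was unpaired, so both libraries of a mouse were treated as independent. The interaction called 0% of 22771 genes by edgeR, with 979 at an unadjusted p under 0.05 and 62 called by DESeq2, and none of the 8 members tested was among them. Ptprc had an interaction of -0.33 (SE 0.99) and Trdc one of -0.43 (SE 2.11) on the log2 scale. None of the tested genes of the other lymphocyte lists was called by age in either layer or in the interaction.

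The genes most like the CD3 chains across epithelium were not lymphocyte genes. Over the 9 epithelial libraries, centred by whether the mouse also gave stroma, the mean log2 CPM of Cd3d, Cd3e and Cd3g was closest to Glmn, Mme, Yeats2, Fat3, Nhlrc3, Rasgrf2, Tubgcp5, Fzd3, Slit2 and Inpp4b, with Pearson r from 0.95 down to 0.89 among 14132 genes. The ranking was limited to genes that passed the filters on low counts. Among the members, only Ptprc passed in both the layer and the epithelial age comparison. None of the 8 other T cell receptor and CD3 chains passed in either, so the ranking cannot show whether those chains were closer. The CD3 chains themselves had 0 to 16 counts per epithelial library, and whether such r values exceed those of unrelated genes was not tested. Of the other members, Trdc had an r of 0.72, Ptprc 0.32, Cd8a 0.23, Trac 0.08, Gzmb 0.06, Cd4 -0.23 and Nkg7 -0.28. The olfactory receptor level had an r of 0.62 with the CD3 chains over the same libraries, which share depth and preparation. That r was taken from logs with other added constants than the r values above, so it cannot be ranked among them.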

How the data were processed

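Epithelial and stromal libraries were made from oligo(dT)-selected mRNA. The authors used Rsubread for alignment to GRCm38.p6, counted reads per gene with featureCounts and deposited raw counts for 55291 symbols; annotation release, strand and multi-mapping settings are not given in the sources used here. Exon lengths and positions came from GENCODE M21, in which 53186 symbols were found once. Counts were normalised by TMM, filtered with filterByExpr (minimum count 10) and tested with edgeR 4.0.16 (robust quasi-likelihood) in R 4.3.3, with Benjamini-Hochberg adjustment over all genes tested and a threshold of 0.05. Layers were compared over 14 samples, age within each layer (in epithelium with a covariate for the form of mouse code, which tells mice with stroma from those without) and the interaction over 10 samples of 5 mice. The SE is the log2 fold change divided by the square root of F. The study's methods name DESeq2, which was run here (1.42.0) as an alternative. Alternatives also covered no filter, a strict filter, upper quartile normalisation, mitochondrial and ribosomal-like genes left out, blocks, covariates, sample subsets and each mouse left out. The fits without the stroma of O3, of Y3 or of both were added after the data were seen, as were the alternatives to the layer fit without a filter. The layer comparison and the interaction were unpaired. In the alternatives with mouse as a block, layers were paired because both samples of a mouse share an animal. The deviations of the layers of a mouse correlated weakly (r from -0.04 to 0.14 in 5 mice). The procedure was tested on simulated counts.

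Sex is labelled for 3 mice and was not used. Floors cover counting error only, whereas the SE from edgeR also takes in the estimated spread between libraries. The members and gene lists were chosen with earlier results of these data known. The members were always named; from each other lymphocyte list, the 3 tested genes with the highest mean CPM were named, with any called by age, except items withheld from this text, which are not reported here; the 10 genes with the highest r to the CD3 chains were named. Genes outside this rule are marked.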

Additional observations from a re-analysis of the deposited data

Results flagged for a closer look

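In 40 checks of a member within a group of 4 to 10 libraries, 2 values stood far from the others of their group, and chance alone marks about 1 in 20 groups, which is 2 of 40. Cd3e in the epithelium of Y3 was at 0.164 CPM, which was 5 counts, while the other 3 young epithelial libraries had 0. Trac in the epithelium of YF5 was at 0.833 CPM, which was 2 counts in a shallow library, against 0.236 CPM in the next highest of the 9 epithelial libraries.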

How the results depend on the processing

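The layer calls of Ptprc and Trdc held under all 19 alternatives that tested them, with log2 fold changes from -2.42 to -1.12 and from -5.85 to -4.29. Where a filter on low counts was used, Trdc passed it only through its stromal libraries, so those alternatives are not independent support for its call. With mouse as a replicate block, 8590 genes were called. Requiring at least 10 counts in every sample left 4316 called genes and 0 tested members. Without a filter 5 members were called. From there, 3 were called without the stroma of O3 or in the mice with both layers, 2 with mouse as a block or without the stroma of O3 and Y3, and 3 to 5 with each mouse left out. Nkg7 turned to -0.046 with DESeq2, -0.46 in mice with both layers and -0.17 with the block, and ran from -0.12 to 1.31 with each mouse left out. Trac turned to 1.93 without the stroma of O3 and Y3, the stromal libraries that held it. For age in epithelium, 2 genes became 28 with DESeq2, 36 without a filter, 4 in mice with both layers, 1 in mice with epithelium only, 0 with no covariate, 4 with the code number as a block and 0 to 3 with each mouse left out. For age in stroma, 0 became 2 with DESeq2, 26 without a filter, 6 with the number block, and 0 to 13 with each mouse left out (13 without Y1, 7 without Y3). The interaction gave 62 with DESeq2 and 98 without a filter. With each mouse left out, the interaction of Ptprc ran from -1.17 to 0.94 (0.14 with the mouse block), that of Trdc from -1.67 to 0.88, and the stromal age difference of Ptprc from -0.67 to 1.0; the turned values were those without O3. The causes were not tested. Equal code numbers across ages had r of 0.01, 0.21 and -0.15 in epithelium and 0.13 and 0.10 in stroma. The layers of a single mouse had r within that range, so these values cannot show whether equal numbers pair mice. No member was called by age or in the interaction under any alternative. Depth limits the members most in the 4 shallow epithelial libraries.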
